A study of Sus scrofa with 72 samples.

Results

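Collagens were followed in porcine synovial mesenchymal stem cells (SMSCs) through 14 days of culture in adipogenic medium. The genes described here are those whose symbol in the annotation of the array is COL, a number, A and a number. This pattern matched 100 probe sets of 38 genes, out of 47845 probe sets and 13755 named genes in the deposited table. Each gene is given by the probe set with the highest mean over the arrays, and its other probe sets serve as a check.

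Collagens are proteins whose chains wind into a helix, and each gene encodes its own chain. Fibrillar collagens such as types I, III and V build the fibrils of connective tissue, and the fibril-associated types XII, XIV and XVI sit on the surface of those fibrils. Type VI forms beaded filaments, type IV the sheet-like network of basement membranes, which surround each mature fat cell, and type XV lies where basement membrane meets fibrils. Chains are hydroxylated and folded in the endoplasmic reticulum, exported in large COPII carriers, trimmed outside the cell and crosslinked by lysyl oxidases.

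The cells came from male piglets of 59 days of the breeds Angeln Saddleback (AS) and German Landrace (DL). Adipose synovium of the infrapatellar fat pad (FP) and fibrous synovium of the joint capsule (FS) were sampled, and the cells of 3 pigs of 1 breed and tissue were pooled at passage 3. Cells were grown in adipogenic induction medium (AIM, a commercial adipogenesis kit) and harvested on days 1, 4, 7 and 14, or in complete culture medium (CCM, high-glucose DMEM with serum) and harvested at the start (day 0) and on the same 4 days. This gave 36 groups of breed, tissue, medium and day, each with 2 independent cultures of the same pool on 1 Snowball array each, 72 arrays in all. With 1 pool per breed and tissue, p-values measure the spread between cultures of a pool and not between pigs, and a breed or tissue cannot be told apart from its pools.

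Of the 72 arrays 68 were used. The AIM and CCM cultures of AS FP replicate 2 on day 7 went against their labels: after subtraction of each probe set's mean, their deviations correlated with those of the other arrays that shared tissue, medium and day at a median of -0.50 for the array labelled AIM and -0.53 for the one labelled CCM. The array labelled AIM had a COL14A1 log2 intensity of 10.28, where the 7 other AIM arrays of that day had 5.00 to 8.14, and the array labelled CCM had 5.54, where the 7 other CCM arrays had 10.50 to 10.94. DL FP replicate 2 on day 0 (0.353) and DL FS replicate 2 in CCM on day 1 (0.239) also lay below the range of the arrays used (0.456 to 0.817, median 0.655). These 4 arrays were left out, so that 4 groups had 1 array, and calls of AIM against CCM, of tissue and of breed that were lost with them in the fit are named beside the gene. Array medians of the log2 intensities were 3.95 to 4.12, and the background control probe sets averaged 3.34. Stromal cell markers (6 measured) had array medians of 8.25 to 9.31 in AIM and 8.83 to 10.17 in CCM, although NT5E was at or below the background controls in all groups of medium and day but CCM on day 1. On day 7, 4 of the 5 tested stromal markers were lower in AIM (27.4% of all tested probe sets), with THY1 at -2.12 on the log2 scale. All 8 tested fat cell markers, ADIPOQ and FABP4 among them, were higher in AIM on days 4, 7 and 14 (19.6%, 17.7% and 20.9% of all tested probe sets). On those days the array medians over 9 measured markers were 9.70 to 10.92 in AIM and 3.64 to 8.53 in CCM. Leptin (LEP) was at or below background in both media. Macrophage markers CD163, PTPRC and MRC1 and endothelial markers KDR and TEK were at or below background in every group of medium and day. The other macrophage and leukocyte markers measured, CD14 and AIF1, were tested, and CD14 was higher in AIM on day 14 (0.96, adjusted p = 8.3e-10 from limma). In CCM on day 14 the array medians over 5 such markers reached 5.79 (median 2.80), so CD163, PTPRC and MRC1 were not all at background in every array. Endothelial markers PECAM1, CDH5 and CLDN5 were tested too, with no AIM minus CCM difference at an adjusted p under 0.01 from limma.

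At their highest probe set, collagens spanned most of the range of the array. The chains of type I, COL1A2 and COL1A1, had mean log2 intensities of 12.61 and 11.74 over the 68 arrays, and COL3A1, COL6A2, COL5A2, COL12A1, COL6A3 and COL15A1 were all above 10. Intensities of different probe sets also depend on the probes, so this order is one of signal and not of transcript number. At the other end, COL28A1, COL21A1 and COL19A1 had means of 2.84, 3.18 and 3.21, below the background controls. Only probe sets with an SD above 0.25 that lay over the array median in 8 or more arrays were tested. By this filter 22 collagen genes were tested and 16 were not, of which 12 had too small an SD and 4 (COL10A1, COL21A1, COL4A4 and COL6A6) too few arrays above the median. Differences below are AIM minus CCM on the log2 scale, averaged over the 4 pools, from limma with Benjamini-Hochberg adjustment over all 18335 tested probe sets, and those with an adjusted p under 0.01 are said to have passed.

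Collagen genes moved both ways in AIM. The type IV chains COL4A1 and COL4A2 were higher than in CCM on all 4 days, COL14A1 and COL24A1 were lower on all 4 days, and COL16A1, COL1A2, COL6A2 and COL8A1 were lower on days 4, 7 and 14. On day 1, 6 of the 22 tested collagen genes were higher in AIM, 3 were lower and 13 did not pass, against 28.0% of all tested probe sets that passed (10.4% higher and 17.6% lower). On day 4, 3 were higher and 10 lower (49.1% of all passed, 19.6% higher and 29.5% lower). On day 7, 5 were higher and 11 lower, against 45.0% of all tested probe sets (17.7% and 27.4%). On day 14 the numbers were 5 and 7, against 48.5% (20.9% and 27.7%). The median difference of the 22 genes was 0.01, -0.18, -0.37 and -0.11 on days 1, 4, 7 and 14, where that of all tested probe sets was -0.03, -0.02, -0.05 and -0.01. The median size of the difference without its sign was 0.24, 0.66, 0.575 and 0.43, and 0.22, 0.36, 0.355 and 0.35 over all tested probe sets. AIM and CCM arrays did not overlap for 4, 9, 11 and 8 of the 22 genes on the 4 days, and for 13.4%, 26.8%, 27.2% and 24.7% of all tested probe sets. In bulk RNA, fewer cells that make a collagen and less RNA of it per cell cannot be told apart, and the part of the stromal and fat cell markers, which moved in the same cultures, was not tested. With all 72 arrays as labelled, 5 collagen genes were higher and 1 lower on day 1 and 5 higher and 6 lower on day 7, and the counts of days 4 and 14 were the same. Without DL FP replicate 2, 1 was lower on day 1. The shares of all tested probe sets in these fits are not given here.

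**Figure D1:**
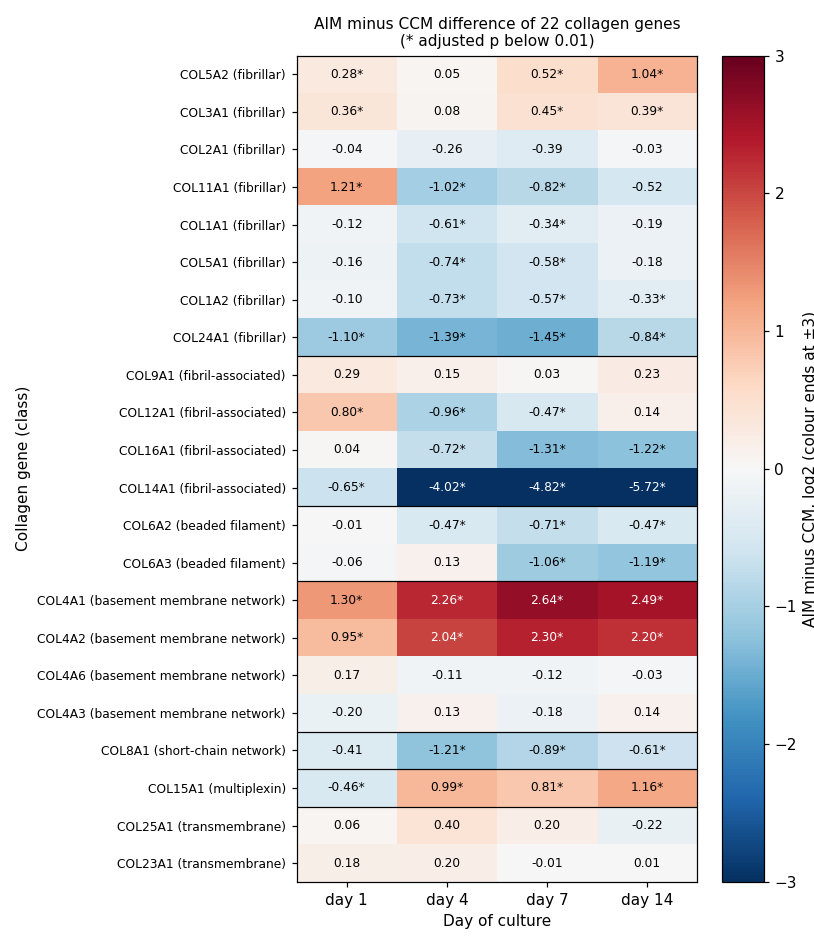
Difference of AIM minus CCM (log2) for each of the 22 tested collagen genes (rows, grouped by class) on days 1, 4, 7 and 14 (columns), with red for higher and blue for lower in AIM and an asterisk where the adjusted p was under 0.01. COL4A1 and COL4A2 are higher on every day, COL14A1 reaches -5.72 on day 14, and COL11A1, COL12A1 and COL15A1 hold passing values of both signs.

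COL14A1, the chain of fibril-associated type XIV collagen, had the largest change of the tested collagen genes. In AIM its log2 intensity was 8.43 to 9.49 (median 8.48) on day 1 and 6.17 to 7.16 (median 6.76) on day 4, against 8.84 to 9.90 (median 9.36) and 10.09 to 11.12 (median 10.82) in CCM on those days. By day 7 it was 5.00 to 8.14 (median 5.44) in AIM and 10.50 to 10.94 (median 10.76) in CCM, and by day 14 4.23 to 5.75 (median 5.37) in AIM and 10.72 to 11.17 (median 11.04) in CCM. The arrays of both media overlapped on day 1 and stood apart on the 3 later days, with AIM lower. The difference was -0.65 (SE 0.19, adjusted p = 0.0067 from limma) on day 1 and -4.02 (SE 0.18, adjusted p = 8.2e-21) on day 4. It then reached -4.82 (SE 0.20) and -5.72 (SE 0.18, adjusted p = 2.4e-25) on days 7 and 14. The day 1 difference was the least secure of them: its adjusted p was 0.18 with all 72 arrays as labelled, 0.013 after quantile normalization and 0.013 to 0.042 in the 6 of 7 fits without 1 culture line in which it was lost. On day 7 the AIM array of DL FS replicate 2 held the highest value, 8.14, while the 6 other AIM arrays had 5.00 to 6.05. Its median over 9 fat cell markers was 10.04, within the 9.76 to 10.92 of the AIM arrays used on that day. In all 4 pools COL14A1 was lower in AIM on each day, by 3.81 (DL FS) to 5.51 (AS FS) on day 7 and by 5.36 (AS FP) to 6.34 (DL FS) on day 14.

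COL14A1 fell in AIM up to day 7. On day 0 it had 9.74 to 10.65 (median 10.09) in CCM. Against this, AIM on day 1 was lower by 1.44 (log2) and CCM on day 1 by 0.79. Later steps in AIM were -2.004 from day 1 to day 4 and -0.83 from day 4 to day 7, and the step from day 7 to day 14 (-0.61, adjusted p = 0.031 from limma) did not pass. In CCM the level rose by 1.37 from day 1 to day 4, and no later step passed in CCM.

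Among the other fibril-associated chains, COL16A1 (type XVI) was lower in AIM on day 4 (-0.72), day 7 (-1.31) and day 14 (-1.22), after 0.04 on day 1, which did not pass. COL12A1, the type XII chain that links fibrils to their surroundings, changed sign. It was higher in AIM on day 1 (0.80, SE 0.10, adjusted p = 3.9e-08 from limma), at 11.09 to 11.70 (median 11.48) in AIM and 10.31 to 11.07 (median 10.64) in CCM, with no overlap. On day 4 it was lower (-0.96, SE 0.10), at 9.34 to 10.18 (median 9.65) in AIM and 10.32 to 11.16 (median 10.56) in CCM, again with no overlap. Day 7 gave -0.47 with overlapping arrays, a call lost with all 72 arrays as labelled (-0.27, adjusted p = 0.074), and day 14 gave 0.14, which did not pass. Levels in CCM stayed within means of 10.52 to 10.84 over all 5 days, so that the change of sign lay in AIM, which rose to a mean of 11.41 ± 0.22 (SD, n = 8) on day 1 and fell to 9.70 ± 0.35 (SD, n = 8) on day 4. Both other tested probe sets of COL12A1 passed in the same directions on days 1 and 4, neither passed on day 7, and 1 passed on day 14 (0.42, adjusted p = 0.00073 from limma). COL9A1, a chain of cartilage collagen IX, passed on no day.

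**Figure D2:**
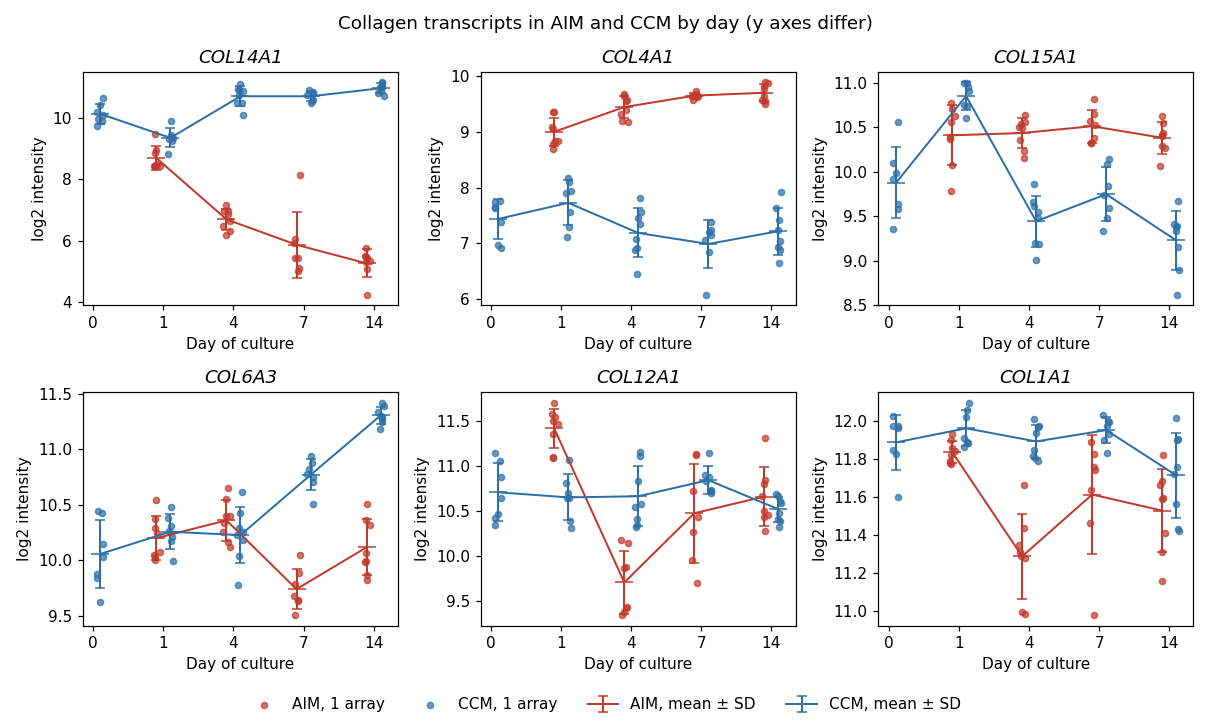
Log2 intensity of 6 collagen genes (panels, each with its own y axis) by day of culture, for AIM in red and CCM in blue. Points are single arrays, and lines join means with SD bars, so that the fall of COL14A1 in AIM to a mean of 5.26 on day 14 and the peak of COL12A1 in AIM on day 1 can be seen array by array.

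The type IV collagens of basement membrane moved up. COL4A1 had 8.70 to 9.36 (median 8.95) in AIM and 7.11 to 8.17 (median 7.90) in CCM on day 1, and 9.19 to 9.69 (median 9.48) in AIM and 6.45 to 7.81 (median 7.21) in CCM on day 4. Values on day 7 were 9.58 to 9.74 (median 9.64) in AIM and 6.07 to 7.37 (median 7.14) in CCM, followed on day 14 by 9.51 to 9.89 (median 9.71) in AIM and 6.65 to 7.92 (median 7.15) in CCM. Every AIM array was above every CCM array of its day. On day 7 the 7 AIM arrays had an SD of 0.05, against 0.44 in the 7 CCM arrays. The differences were 1.304 (SE 0.12), 2.26 (SE 0.11), 2.64 (SE 0.13) and 2.49 (SE 0.11) on days 1, 4, 7 and 14, with adjusted p from limma of at most 4.1e-11. COL4A2, whose chain joins that of COL4A1 in the same helix, followed with 0.95, 2.04, 2.30 and 2.20. Both were up within a day: AIM on day 1 exceeded day 0 in CCM by 1.58 for COL4A1 and 1.12 for COL4A2. The step from day 1 to day 4 in AIM added 0.44 and 0.97, and no later step in AIM passed. Between those days the CCM median of COL4A1 went from 7.90 to 7.21, so that its difference widened from both sides. COL4A3 and COL4A6, whose chains belong to the type IV networks of kidney, lung and other specialised basement membranes, passed on no day, with differences of -0.20 to 0.17. COL4A4 and COL4A5 were not tested.

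COL15A1 of the multiplexin class, which lies on the outer side of basement membranes, was lower in AIM on day 1 and higher on the 3 later days. On day 1 it had 9.78 to 10.77 (median 10.48) in AIM and 10.61 to 11.00 (median 10.91) in CCM, and on day 4 10.15 to 10.64 (median 10.50) in AIM and 9.01 to 9.86 (median 9.51) in CCM. Day 7 had 10.32 to 10.82 (median 10.53) in AIM and 9.34 to 10.15 (median 9.74) in CCM, and day 14 10.06 to 10.63 (median 10.41) in AIM and 8.61 to 9.67 (median 9.35) in CCM. The arrays overlapped on day 1 and not afterwards. Differences were -0.46 (SE 0.11, adjusted p = 0.0014 from limma), 0.99, 0.81 and 1.16 (SE 0.11, adjusted p = 7.1e-12). The day 1 call did not hold with all 72 arrays as labelled (-0.34, adjusted p = 0.048) or without DL FP replicate 2 (-0.45, adjusted p = 0.013). Here the change of sign lay in CCM, where the gene rose by 0.90 from day 0 to day 1 and fell by 1.42 from day 1 to day 4 and by 0.49 from day 7 to day 14. AIM means stayed at 10.38 to 10.51 from day 1 to day 14. COL18A1, the other multiplexin and the source of endostatin, had an SD of 0.23 and was not tested. Without the filter its differences were 0.26, 0.39, 0.24 and 0.24, of which day 4 passed (adjusted p = 6.8e-05 from limma).

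Of the 8 tested fibrillar chains, 3 were higher and 1 lower in AIM on day 1, none higher and 5 lower on day 4, 2 higher and 5 lower on day 7, and 2 higher and 2 lower on day 14. The shares of all tested probe sets were 10.4%, 19.6%, 17.7% and 20.9% higher and 17.6%, 29.5%, 27.4% and 27.7% lower on the 4 days. Type I, the main collagen of fibrous tissue, had its lowest AIM medians on day 4. COL1A1 had 11.78 to 11.94 (median 11.83) in AIM and 11.87 to 12.10 (median 11.91) in CCM on day 1, and 10.98 to 11.66 (median 11.30) in AIM and 11.79 to 12.01 (median 11.90) in CCM on day 4. Later it had 10.98 to 11.89 (median 11.74) in AIM and 11.84 to 12.03 (median 11.97) in CCM on day 7, and 11.16 to 11.82 (median 11.59) in AIM and 11.42 to 12.02 (median 11.74) in CCM on day 14. Only on day 4 did the arrays of both media stand apart. The difference was -0.61 (SE 0.09, adjusted p = 3.1e-07 from limma) on day 4 and -0.34 (adjusted p = 0.0039) on day 7, and it did not pass on day 1 (-0.12) or day 14 (-0.19). The day 7 call was lost with all 72 arrays as labelled (-0.27, adjusted p = 0.021) and without AS FS replicate 1 (-0.26) or either DL FP culture line (-0.34 and -0.35). On day 4, 3 other tested probe sets of COL1A1 gave -1.07, -1.52 and -0.83, each a larger difference than that of the probe set with the highest mean. On day 14, 1 of them passed (-0.40, adjusted p = 0.0012).

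COL1A2, the partner chain of type I, had 12.61 to 12.87 (median 12.69) in AIM and 12.72 to 12.95 (median 12.86) in CCM on day 1, and 11.78 to 12.31 (median 12.04) in AIM and 12.63 to 12.94 (median 12.78) in CCM on day 4. On days 7 and 14 it had 11.88 to 12.48 (median 12.43) and 12.08 to 12.61 (median 12.42) in AIM, and 12.70 to 12.88 (median 12.79) and 12.63 to 12.93 (median 12.72) in CCM. It was lower in AIM from day 4 on, with differences of -0.73, -0.57 and -0.33 (SE 0.07 to 0.08). COL5A1, a chain of the type V collagen found inside type I fibrils, was lower on day 4 (-0.74) and day 7 (-0.58, or -0.35 with adjusted p = 0.014 with all 72 arrays as labelled) and was at -0.18 on day 14, which did not pass. Both other tested probe sets of COL5A1 passed on day 4 with smaller differences (-0.40 each), and neither passed on day 7 (-0.24 and -0.28).

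COL3A1 and COL5A2 went the other way. For COL3A1, the chain of the type III collagen of soft tissues, day 1 gave 11.20 to 11.48 (median 11.35) in AIM and 10.82 to 11.19 (median 11.00) in CCM, and day 4 11.05 to 11.63 (median 11.38) in AIM and 11.06 to 11.63 (median 11.28) in CCM. It had 11.39 to 11.99 (median 11.92) in AIM and 11.05 to 11.48 (median 11.30) in CCM on day 7, and 11.40 to 11.89 (median 11.76) in AIM and 11.16 to 11.43 (median 11.31) in CCM on day 14. Differences of 0.36, 0.45 and 0.39 passed on days 1, 7 and 14 (SE 0.07 to 0.08), with arrays apart on day 1 and overlapping on the others, and 0.08 on day 4 did not. COL5A2, a second chain of type V, was higher on day 1 (0.28), day 7 (0.52) and day 14 (1.04, SE 0.06, adjusted p = 4e-17 from limma), but not on day 4 (0.05). Its day 1 call was lost with all 72 arrays as labelled (adjusted p = 0.0135) and without AS FP replicate 2 (0.23, adjusted p = 0.0113). COL5A1 and COL5A2 encode chains of 1 molecule, and on day 14 they stood at -0.18 and 1.04. The difference between them was not tested.

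Low fibrillar chains moved as well. COL24A1, a minor fibrillar chain described in bone and cornea, was lower in AIM on all 4 days, with differences of -1.10, -1.39, -1.45 and -0.84. On days 1 and 4 it had 4.16 to 4.82 (median 4.46) and 3.66 to 4.77 (median 4.04) in AIM, and 4.78 to 7.05 (median 5.82) and 4.59 to 6.51 (median 5.22) in CCM. On days 7 and 14 it had 3.59 to 4.91 (median 3.95) and 3.66 to 4.89 (median 4.23) in AIM, and 5.05 to 6.15 (median 5.36) and 4.47 to 5.36 (median 5.09) in CCM. The lowest AIM values were close to the background mean of 3.34, and the media stood apart only on day 7. COL11A1, a chain of type XI that is best known from cartilage, changed sign as COL12A1 did: higher in AIM on day 1 (1.21, SE 0.19), lower on day 4 (-1.02, SE 0.18) and day 7 (-0.82), and -0.52 on day 14, which did not pass. Its arrays overlapped on every day, and on day 7 its pools ran from -1.68 (AS FP) to 0.15 (DL FP). With all 72 arrays as labelled the day 7 difference was -0.48 (adjusted p = 0.071). COL2A1, the main collagen of cartilage, passed on no day (-0.04, -0.26, -0.39 and -0.03), although 1 other probe set, at a mean of 4.75, passed on day 14 (0.40, adjusted p = 0.0039 from limma). Of 4 tested cartilage markers on day 7, ACAN (-1.32) and SOX9 (-1.08) were lower in AIM, SOX5 (0.73) was higher and 1 did not pass (45.0% of all tested probe sets passed).

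Of type VI collagen, which surrounds cells as beaded filaments, COL6A3 was lower in AIM from day 7 on and COL6A2 from day 4 on. COL6A3 had 10.00 to 10.54 (median 10.16) in AIM and 9.99 to 10.48 (median 10.26) in CCM on day 1, and 10.12 to 10.65 (median 10.37) in AIM and 9.78 to 10.62 (median 10.24) in CCM on day 4. These overlapped. From day 7 they did not: 9.51 to 10.05 (median 9.67) in AIM and 10.51 to 10.94 (median 10.78) in CCM on day 7, and 9.83 to 10.51 (median 10.03) in AIM and 11.18 to 11.42 (median 11.30) in CCM on day 14. The differences of -1.06 (SE 0.11) and -1.19 (SE 0.10, adjusted p = 4.6e-13 from limma) came from both sides, since CCM rose by 0.56 from day 4 to day 7 and by 0.52 from day 7 to day 14, and AIM fell by 0.63 from day 4 to day 7. COL6A2 was lower in AIM on day 4 (-0.47), day 7 (-0.71) and day 14 (-0.47). COL6A1 is not named in the annotation used and was not analysed here.

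COL8A1, a short-chain collagen of vessel walls and of the cornea, was lower on day 4 (-1.21), day 7 (-0.89) and day 14 (-0.62). On days 1 and 4 it had 5.51 to 6.38 (median 5.62) and 3.83 to 4.89 (median 4.53) in AIM, and 5.69 to 6.50 (median 6.26) and 5.28 to 6.17 (median 5.63) in CCM. On days 7 and 14 it had 4.57 to 5.36 (median 4.83) and 4.44 to 5.87 (median 4.85) in AIM, and 5.59 to 6.07 (median 5.72) and 5.06 to 6.24 (median 5.57) in CCM. The media stood apart on days 4 and 7. The day 7 call was lost with all 72 arrays as labelled (-0.56, adjusted p = 0.017), and the day 14 call without AS FS replicate 2 (-0.51) or DL FP replicate 2 (-0.53). Of the 2 transmembrane collagens tested, COL23A1 and COL25A1, none passed, and COL25A1, the one with the larger difference, had 3.74 to 4.57 (median 4.14) in AIM and 2.90 to 4.23 (median 3.81) in CCM on day 4 (0.40, adjusted p = 0.021 from limma). On day 1 COL25A1 had 3.56 to 4.07 (median 3.86) in AIM and 3.44 to 4.20 (median 3.86) in CCM. Days 7 and 14 gave 3.82 to 4.33 (median 4.11) and 3.24 to 4.30 (median 3.61) in AIM, and 3.27 to 4.45 (median 4.00) and 3.24 to 4.40 (median 3.89) in CCM, close to background throughout.

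Genes left out by the filter were read without it, with p adjusted over all probe sets. COL21A1, a fibril-associated chain, exceeded the array median in 7 arrays where 8 were asked, and was higher in AIM on day 4 by 1.25 (SE 0.25, adjusted p = 0.00013 from limma). Its values on that day were 2.25 to 5.03 (median 4.23) in AIM and 2.31 to 3.53 (median 2.96) in CCM, so that CCM lay at or near background and the arrays overlapped. COL27A1 on day 4 (0.35) and COL8A2 on day 14 (0.36) also passed in this setting. Another probe set of COL27A1, at a mean of 4.28, was within the filter and was higher in AIM on day 4 (0.73, adjusted p = 7.1e-07 from limma), and did not pass on the other days. The other 12 untested genes, among them COL7A1 of anchoring fibrils and COL10A1 of growth cartilage, passed on no day.

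Several probe sets were tested for 9 genes, with 23 beside those used above. Their sign was that of the probe set with the highest mean in 19, 21, 23 and 20 of the 23 on days 1, 4, 7 and 14. On none of these days did 2 probe sets of a gene both pass in opposite directions. Sizes varied. For COL8A1 on day 4 the 2 other probe sets gave -3.13 (SE 0.21) and -0.19 (SE 0.14), against -1.21, although their means over the arrays were 5.00 and 5.05. COL6A3 had 8 others, of which 7 gave -0.99 to -2.01 on day 14 and 1, at a mean intensity of 4.09, gave 0.13. What sets such probe sets apart was not tested.

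**Figure D3:**
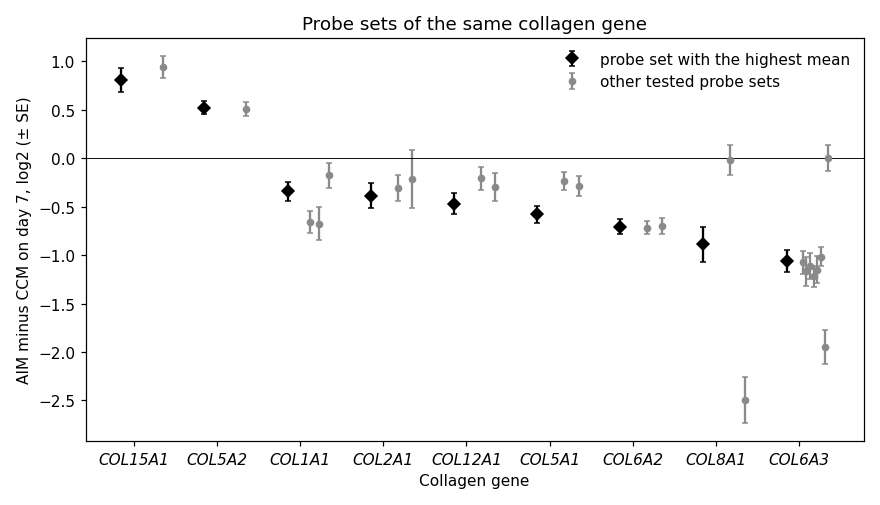
Difference of AIM minus CCM on day 7 (log2, with SE bars) for the probe set with the highest mean (black diamonds) and the other tested probe sets (grey circles) of 9 collagen genes. All 23 other probe sets had the sign of the main one, and COL8A1 shows the widest spread, from -2.49 to -0.02.

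Steps within a medium show when the levels moved. From day 0 in CCM to day 1 in AIM, 5 collagen genes rose and 2 fell (38.0% of all tested probe sets passed, 16.8% up and 21.2% down), the largest being COL4A1 and COL14A1. Between day 1 and day 4 in AIM, 2 rose and 10 fell (48.7% of all, 20.4% and 28.4%). COL11A1 (-1.94), COL12A1 (-1.71), COL8A1 (-1.33) and COL5A1 (-1.26) followed COL14A1 in size. From day 4 to day 7 in AIM, 3 rose, COL12A1 by 0.71, COL5A2 by 0.47 and COL3A1 by 0.33, while COL14A1 and COL6A3 fell (5.70% of all, 3.36% up and 2.34% down). COL5A2 (0.27) and COL6A2 (0.33) rose from day 7 to day 14 (6.00% of all, 4.18% up). In CCM, 2 genes rose and 2 fell from day 0 to day 1 (31.8% of all, 16.1% and 15.6%), and 2 rose and 3 fell from day 1 to day 4 (37.1%, 17.9% and 19.2%). From day 4 to day 7, 1 rose (0.191%, 0.136% up), and from day 7 to day 14, 1 rose and 1 fell (1.75%, 1.33% and 0.415%). Among the CCM steps, COL5A1 rose by 0.28 and then fell by 0.68, and COL3A1 did the reverse (-0.29 and 0.33).

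The collagen genes were also compared over the 36 group means. COL4A1 and COL4A2 had a Pearson's r of 0.97, and COL1A1 and COL1A2 of 0.88, while the median over all 231 pairs of tested collagen genes was 0.04. COL14A1 and COL16A1 (0.87), COL1A2 and COL8A1 (0.88) and COL5A1 and COL8A1 (0.85) also ran together. The lowest values joined the classes that moved apart, COL14A1 with COL4A2 (-0.95) and with COL4A1 (-0.93). These correlations are descriptions: the points share media, days, pools and arrays. In the gene order used, COL4A1 and COL4A2 were adjacent, as were COL3A1 and COL5A2, whose r was 0.58. These were the only adjacent pairs with both genes tested. Among 7555 other named genes, those most like COL14A1 over the 36 groups were PLXDC1 (r = 0.976), PTGFRN (0.966) and SGCE (0.965). COL4A1 was closest to COL4A2, RDH11 (0.97) and NT5DC2 (0.97), and COL1A1 to COL1A2, GET4 (0.87) and VGLL3 (0.86).

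**Figure D4:**
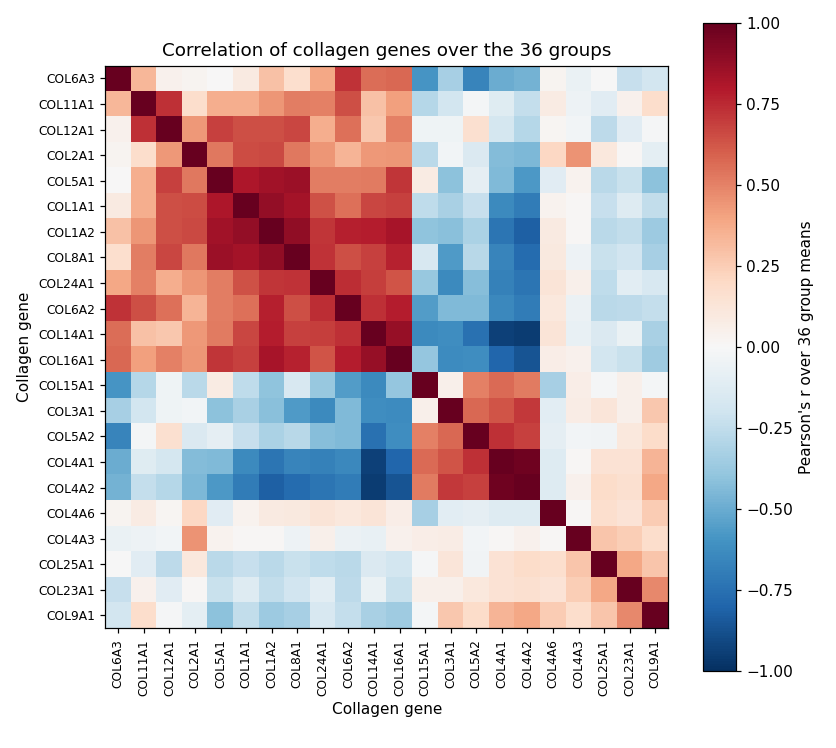
Pearson's r between the 22 tested collagen genes over the 36 group means, from -1 (blue) to 1 (red), in an order set by average-linkage clustering. COL1A1, COL1A2, COL5A1 and COL8A1 form a block of positive values, and COL4A1 and COL4A2 run opposite to COL14A1 and COL16A1.

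Most genes that modify, fold and export collagen chains were lower in AIM after day 1. Of 13 tested genes of chain modification and folding, 1 was higher and 3 were lower on day 1, and 11, 12 and 11 were lower with none higher on days 4, 7 and 14. Of all tested probe sets, 10.4% were higher and 17.6% lower on day 1, and 29.5%, 27.4% and 27.7% were lower on the later days. Median differences of the 13 genes were -0.17, -0.86, -0.84 and -0.87, beside those of all tested probe sets given above. The largest on day 4 were P4HA2 (-1.85), a subunit of the prolyl hydroxylase that stabilises the helix, FKBP7 (-1.13), a folding enzyme, CRTAP (-1.13), part of a prolyl modification complex, and PLOD2 (-1.08), a lysyl hydroxylase. SERPINH1 (HSP47), the collagen chaperone, was lower on all 4 days (-1.01, -0.87, -0.84 and -0.71). Among 4 tested export genes, the same 3 were lower on each day, beside the same shares of all tested probe sets. On day 4 they were SEC24D (-1.06), SEC23A (-0.93) and MIA3 (-0.44), which load or coat the export carriers.

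Genes that act outside the cell went both ways, and their counts are to be read against the 28.0%, 49.1%, 45.0% and 48.5% of all tested probe sets that passed on days 1, 4, 7 and 14. Of 8 tested genes of cleavage and crosslinking, 2, 1, 2 and 1 were higher and 3, 4, 4 and 5 were lower on days 1, 4, 7 and 14. Lysyl oxidase LOX (-1.54) and the cleavage enhancer PCOLCE (-1.72) were lower on day 7, whereas LOXL2 (0.69) and PCOLCE2 (0.31) were higher. Of 7 tested genes of breakdown and uptake, 2, 1, 1 and 0 were higher and 2, 1, 4 and 4 were lower on the 4 days. The collagenase MMP1 (-2.41), the uptake receptor MRC2 (-2.05) and the membrane protease MMP14 (-1.02) were lower on day 7, and MMP2 was higher on day 4 (1.201). Among 6 tested collagen receptors, 2 were higher and none lower on day 1, and 5, 4 and 3 were lower with none higher later, led by integrin ITGA11 (-2.40 on day 4). ITGA1 changed sign, with 0.91 on day 1 and -0.59 on day 4.

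Between FP and FS, 0 of 22 collagen genes passed by limma on day 0 in CCM (0.409% of all tested probe sets). The same held on days 1, 4, 7 and 14 in AIM (0.305%, 0.731%, 0.322% and 0.584%). Genes that did not pass are not shown to be equal. FP minus FS of COL11A1 was 1.00 (SE 0.29) on day 0. In AIM it was 0.63, 0.75, 0.73 and 0.93 on days 1, 4, 7 and 14 (SE 0.26 to 0.29). Averaged over days 1 to 14 in CCM, COL11A1 was higher in FP (0.71, SE 0.14, adjusted p = 0.001), where 2.36% of all probe sets passed (1.25% higher). At their highest probe sets no other collagen gene passed, and 1 other probe set of COL12A1 did (0.34, adjusted p = 0.0084 from limma). The CCM values of COL11A1 were 5.79 to 7.31 (median 7.08) in AS FP and 4.56 to 6.40 (median 5.73) in AS FS, and 4.79 to 5.60 (median 5.24) in DL FP and 4.46 to 5.69 (median 5.15) in DL FS. FP and FS overlapped in both breeds, and whether the tissue difference varied with breed was not tested. This call was lost with all 72 arrays as labelled (0.62, adjusted p = 0.016) and in 4 of the 6 fits without 1 culture line (0.56 to 0.73). The response to AIM, averaged over days 1 to 14, passed for 0 collagen genes between FP and FS (0.387% of all).

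The breeds were compared in the same way. Between AS and DL, 0 collagen genes passed on day 0 in CCM (0.894% of all tested probe sets) by limma. In AIM, 1 was higher on day 1 (2.30% of all, 0.780% higher) and 0 passed on day 4 (4.75%). On day 7, 3 were lower (8.84%, 6.65% lower), and 1 was lower on day 14 (4.07%, 2.48% lower). COL11A1 was higher in AS on day 1 in AIM, at 8.02 and 7.88 in FP and 6.83 and 6.33 in FS, against 5.56 and 5.89 in FP and 5.66 and 6.02 in FS of DL. All 4 AS arrays were above all 4 DL arrays (1.48, SE 0.26, adjusted p = 0.0003), and the call was lost without DL FP replicate 1 (1.40, adjusted p = 0.016). In CCM, averaged over days 1 to 14, 5 collagen genes were higher and 1 lower in AS (8.20% of all passed, 4.15% higher and 4.05% lower). COL11A1 (1.14), COL24A1 (0.74) and COL4A1 (0.55) led, and COL4A2 (0.25), COL6A2 (0.21) and COL15A1 (-0.32) were smaller and were lost with all 72 arrays as labelled and in 6, 6 and 4 of the 6 fits without 1 culture line.

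On day 7 in AIM, COL12A1, COL5A1 and COL1A2 were lower in AS than in DL. For COL12A1 the AS arrays had 9.96 in FP and 9.70 and 10.26 in FS, against 11.12 and 11.13 in FP and 10.72 and 10.43 in FS of DL. For COL5A1 they had 8.85 in FP and 8.91 and 9.29 in FS, against 9.98 and 9.90 in FP and 9.79 and 9.67 in FS of DL. Neither gene overlapped between the breeds, with differences of -0.88 (SE 0.15, adjusted p = 9.4e-05 from limma) and -0.85 (SE 0.13). COL1A2 had 11.88 in FP and 11.88 and 12.43 in FS of AS, against 12.34 and 12.48 in FP and 12.46 and 12.43 in FS of DL, which overlapped. Its difference of -0.41 (adjusted p = 0.0073) was lost in 6 of the 7 fits without 1 culture line. On day 14 COL5A1 was still lower in AS (-0.56), a call lost without AS FP replicate 1 (-0.48), AS FS replicate 1 (-0.46), DL FP replicate 1 (-0.48) or DL FS replicate 1 (-0.50). None of these day 7 and day 14 differences passed with all 72 arrays as labelled. The other tested probe sets of COL5A1 gave -0.03 and -0.24 on day 14, which did not pass. On day 7 both other tested probe sets of COL12A1 passed (-0.94 and -1.03), and neither of COL5A1 did (-0.215 and -0.42). For COL1A1 the probe set with the highest mean did not pass (-0.42), and 2 others did (-0.63 and -1.10). Of the 13 tested genes of chain modification and folding, 7 were lower in AS on day 7 in AIM and none higher, with a median difference of -0.51, where 6.65% of all tested probe sets were lower and their median was -0.07. In the same comparison 2 of 5 tested stromal markers were lower, with a median of -0.42, and their part in these differences was not tested.

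The response to AIM itself differed between the breeds for COL12A1 and COL5A1, 2 of 22 collagen genes, where 3.34% of all tested probe sets passed (1.88% lower). AS had the lower response in both. Averaged over days 1 to 14, AIM minus CCM of COL12A1 was -0.43 in AS and 0.18 in DL, a difference of -0.61 (SE 0.10, adjusted p = 7.8e-05 from limma). For COL5A1 it was -0.63 in AS and -0.20 in DL, a difference of -0.43 (SE 0.08, adjusted p = 0.00061). By pool, COL12A1 was at -0.51 (AS FP), -0.34 (AS FS), 0.355 (DL FP) and 0.01 (DL FS). With all 72 arrays as labelled neither passed (-0.48 with adjusted p = 0.057 and -0.35 with adjusted p = 0.20). COL5A1 also did not pass without AS FS replicate 1 (-0.40) or DL FP replicate 1 (-0.36).

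**Figure D5:**
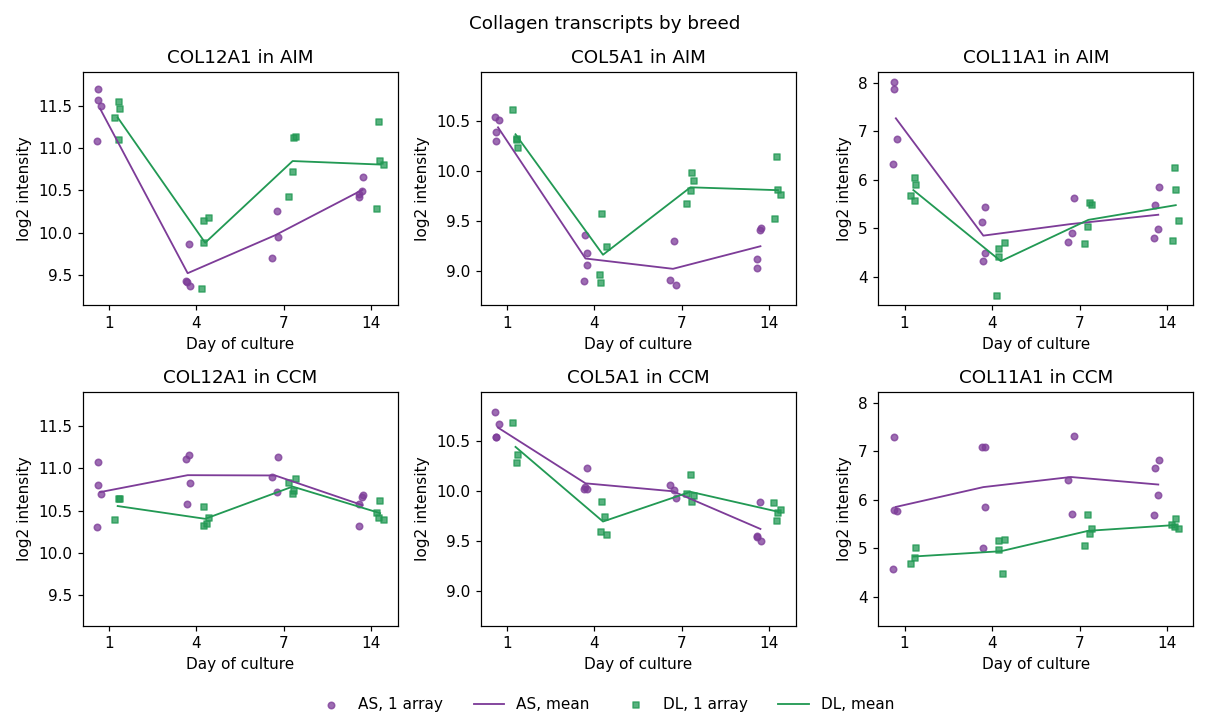
Log2 intensity of COL12A1, COL5A1 and COL11A1 (columns) on days 1 to 14 in AIM (top) and CCM (bottom), with AS as circles and DL as squares. Points are single arrays and lines join means, and on day 7 in AIM all AS arrays of COL12A1 (9.70 to 10.26) and COL5A1 (8.85 to 9.29) lie below the DL arrays.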

How the data were processed

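RNA of 72 cultures was hybridized to the porcine Snowball array. The authors corrected background, normalized and summarized the signals by RMA in Expression Console, with GCOS 1.1.1 as scanner software, and deposited log2 intensity values of 47845 probe sets. Nothing was rescaled here. The platform annotation supplied gene names, with a single gene each for 26426 probe sets.

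In R 4.3.3, limma 3.58.1 fitted 36 group means to 68 arrays with the 8 culture lines as a random block (duplicateCorrelation, statmod 1.5.0, correlation 0.0258) and eBayes. Tested were 18335 probe sets with an SD above 0.25 and a value above the array median in at least 8 arrays. Benjamini-Hochberg adjustment was made per comparison over these probe sets, and the threshold was 0.01. The number of arrays limits the precision. The collagen genes, the gene lists and the marker lists were chosen with earlier results of these data known. Full values are given for the gene with the largest difference in each class, COL1A1, COL1A2 and COL3A1, and from each pathway list the 4 largest passing members at most. SERPINH1 was added after its values were seen.

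On simulated data with 18335 probe sets, 67, 67 and 66 of them were given changes of log2 0.5, 1 and 2 in each comparison. For AIM minus CCM on day 4 the fit found 49.3%, 95.5% and 100% of these changes. For AS minus DL in AIM on day 7 it found 13.4%, 59.7% and 97.0%. In the measured data 49.1% and 8.84% of all tested probe sets passed in these comparisons. Recovery with such shares of changed probe sets was not tested. Tables and figures were made in Python 3.11.15 with pandas 2.3.3, numpy 2.4.6 and matplotlib 3.10.9. Alternatives varied the arrays, the filter, the scaling, the block, the variance model, the model terms, the probe set and the culture line left out.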

Additional observations from a re-analysis of the deposited data

Results flagged for a closer look

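The response of COL12A1 to AIM differed between the breeds by -0.61 (AS minus DL, log2, averaged over days 1 to 14) in a test of the difference itself by limma, with -0.43 in AS and 0.18 in DL. Both other tested probe sets of COL12A1 passed in the same direction (-0.65 and -0.79). The response of COL5A1 differed by -0.43, with -0.63 in AS and -0.20 in DL, and its other tested probe sets gave -0.20 and -0.26, which did not pass. Each breed is 2 pools, so breed and pool cannot be told apart.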

How the results depend on the processing

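The total counts of collagen genes that passed for AIM against CCM stayed within 1.5 times on every day under every setting run: 7 to 9 on day 1, 13 to 14 on day 4, 15 to 17 on day 7 and 11 to 12 on day 14 with 1 culture line left out, and 6, 13, 11 and 12 with all 72 arrays as labelled. Of the 50 passing differences behind these counts, 8 were lost with all 72 arrays, at most 1 under each other setting with all culture lines and at most 4 with 1 line left out, and none changed direction. By direction, the lower count moved to 1 on day 1 (all 72 arrays, and without DL FP replicate 2) in place of 3 and to 6 on day 7 (all 72 arrays) in place of 11, and the higher count to 6 on day 4 without the filter in place of 3, where COL18A1, COL21A1 and COL27A1 were tested too. The fit with no replicate block and the fit with the replicate block as a fixed effect lost 0 of the 50. With the replicate block as a fixed effect, 1 collagen gene passed from day 7 to day 14 in CCM in place of 2, and COL11A1 on day 14 passed (-0.52, adjusted p = 0.0081). Pairing by replicate number changed no other count by over 1.5 times. Over 113 pairs of states within a pool, deviations of the same number correlated at a median of 0.03 (-0.15 to 0.25), with 23 above 0.1. Over 383 pairs from different pools the median was 0.02 (-0.175 to 0.321), with 54 above 0.1. These values do not decide whether cultures of the same number were paired.

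Smaller counts moved more. With all 72 arrays as labelled, 2 genes passed from day 4 to day 7 in AIM (5 without the 4 arrays), 0 from day 7 to day 14 in AIM (2), 1 from day 0 to day 1 in CCM (4), 2 from day 1 to day 4 in CCM (5), 0 from day 4 to day 7 in CCM (1), 0 for FP against FS in CCM (1), 0 for AS against DL on day 7 and on day 14 in AIM (3 and 1), 3 for AS against DL in CCM (6) and 0 for the response between breeds (2). Without the filter, 1 passed from day 7 to day 14 in AIM, 2 from day 0 to day 1 in CCM, 0 from day 4 to day 7 and 1 from day 7 to day 14 in CCM, and 1 for AS against DL on day 4 in AIM. From day 4 to day 7 in CCM 0 passed after quantile normalization and with the probe set of largest SD, and from day 7 to day 14 in CCM 1 passed with centred arrays. The cause of these moves was not tested. The shares of all tested probe sets that passed under each setting are not set beside the collagen counts in this section. Whether the moves are particular to the collagen genes therefore cannot be read from them.

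With 1 culture line left out, counts ranged in AIM from 3 to 5 (day 4 to day 7) and 0 to 2 (day 7 to day 14), and in CCM from 2 to 3 (day 0 to day 1), 0 to 1 (day 4 to day 7) and 0 to 2 (day 7 to day 14). They were 0 to 1 for FP against FS on day 7 in AIM and over days 1 to 14 in CCM, 0 to 2, 2 to 6 and 0 to 1 for AS against DL on days 1, 7 and 14 in AIM, 3 to 4 in CCM, and 1 to 4 for the response between breeds. Fits without AS FP replicate 1 gave no value on day 7, without DL FP replicate 1 none on day 0 and without DL FS replicate 1 none on day 1 in CCM, since a group was then empty.

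Signs turned for differences that had not passed: COL6A2 on day 1 (0.047 after quantile normalization, and -0.045 to 0.016 with 1 culture line left out), COL6A3 on day 1 (0.016 after quantile normalization) and on day 4 (-0.017 with the probe set of largest SD), and COL16A1 on day 1 (-0.011 to 0.091 with 1 culture line left out). Raising low values to the background controls, a step chosen after seeing the data, changed no count of AIM against CCM.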
